A study of Homo sapiens with 18 samples.

Results

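Vimentin (VIM) and 7 other genes that mark the mesenchymal or the epithelial state of a cell were followed through the 18 libraries of a study of SP100 in keratinocytes. The list was VIM, FN1, SPARC, TGFBI, SNAI2, FAP and COL1A1 on the mesenchymal side and CDH1 as the epithelial counterpart. It was chosen by name, but from a known result of these same data, the lower VIM of the knockout line, so every difference between knockout and wild type in these 8 genes is given as a description without a test. All 8 were found by gene symbol among the 16472 genes with values, and all 8 were at 1 RPKM or more (reads per kilobase of gene and per unit of sequencing depth) in all 18 libraries, which placed them among the 13280 genes tested. Their identifiers are ENSG00000026025 for VIM, ENSG00000115414 for FN1, ENSG00000113140 for SPARC, ENSG00000120708 for TGFBI, ENSG00000019549 for SNAI2, ENSG00000039068 for CDH1, ENSG00000078098 for FAP and ENSG00000108821 for COL1A1.

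The cells were NIKS, an established line of human keratinocytes that became immortal spontaneously and is cultured over lethally irradiated J2/3T3 mouse fibroblasts. They were SP100 wild type (WT) or SP100 knockout (KO), and each genotype was left untreated or given interferon alpha 2a, 25 ng/mL, for 12 or 48 h, with 3 biological replicates in each of the 6 groups. The library names carry 1 line label per genotype, Vec2 for WT and KO5 for KO, so that loss of SP100 and any other difference between these lines cannot be told apart. Untreated libraries stand only at 0 h, so that time in interferon and time in culture cannot be told apart either. Whether the replicates were separate cultures is not stated beyond the word biological, and p-values measure the spread between these libraries. SP100, the targeted gene, was at 27.9 to 31.9 RPKM in untreated WT and at 14.2 to 16.0 RPKM in untreated KO, so its transcript was lower but present in the libraries labelled KO. It was higher in interferon in both, at 151 to 172 RPKM in WT and 86.5 to 93.2 RPKM in KO at 12 h and at 124 to 131 and 57.4 to 62.4 RPKM at 48 h, so that treated KO was above untreated WT. Relative depth, recovered from the steps between low values, ranged from 0.844 to 1.27 of the mean, and the absolute number of reads is unknown.

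Vimentin is an intermediate filament protein of fibroblasts and other mesenchymal cells that cultured and migrating keratinocytes also make. Fibronectin (FN1), the matricellular protein SPARC, the TGF-beta-induced adhesion protein TGFBI and type I collagen (COL1A1) belong to the extracellular matrix, and FAP is a cell-surface protease of activated fibroblasts. SNAI2, or Slug, is a zinc finger repressor that is active in basal keratinocytes and at wound edges and is known to repress CDH1, the gene of E-cadherin, which holds epithelial cells together at adherens junctions. In an epithelial-mesenchymal transition the mesenchymal genes rise and CDH1 falls, and a partial form of this is known in wound repair.

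The untreated WT cells held high levels of several of these genes. Their levels per length of gene were 384 ± 6.46 RPKM for VIM (SD, n = 3), 388 ± 39.9 for FN1, 321 ± 13.1 for TGFBI, 124 ± 6.62 for SPARC, 110 ± 4.48 for CDH1 and 82.5 ± 3.73 for SNAI2. FAP was at 5.74 ± 0.889 RPKM and COL1A1 at 1.67 ± 0.356 RPKM. VIM, FN1 and TGFBI thus stood above CDH1 in every untreated WT library, while the collagen gene was near the lower limit of what was tested. The keratinocyte label was checked on KRT5 and KRT14, the keratins of basal keratinocytes, which averaged 7849 ± 78.8 and 6671 ± 245 RPKM in untreated WT.

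Fibroblast markers were read separately because of the feeder layer. Of 13 such markers, 6 had values used here: COL1A1, FAP, PDGFRB, PRRX1, TWIST1 and TWIST2. The summed level of these 6 ranged from 13.6 to 22.1 RPKM in the untreated WT libraries and from 13.1 to 22.4 RPKM in the untreated KO libraries, so the genotypes overlapped. At 12 h it ranged from 24.3 to 31.2 RPKM in WT and from 21.9 to 24.3 RPKM in KO. No KO library was thus above a WT library, the direction in which VIM differed. At 48 h the ranges were 14.7 to 19.1 RPKM in WT and 14.5 to 17.3 RPKM in KO. The single markers did not all differ in that direction at 12 h. The means of PRRX1 (18.7 RPKM in WT and 14.6 RPKM in KO), TWIST1, TWIST2 and FAP were lower in KO. That of COL1A1 was higher in KO, with overlap (1.95 RPKM in WT and 2.597 RPKM in KO). The 12 h mean of PDGFRB was 0.19 RPKM in both. PDGFRB, a receptor that defines fibroblasts and pericytes, had the lowest mean of these 6. It stayed between 0.01 and 0.52 RPKM over all 18 libraries, while PRRX1 ranged from 4.44 to 21.4 RPKM and FAP from 3.52 to 6.83 RPKM. How the authors treated mouse reads is not stated in the sources used here, and the part of feeder RNA in the level of any single gene, or in its difference between WT and KO, was not tested. In bulk RNA fewer cells with a transcript and less of it per cell cannot be told apart. Of the melanocyte markers, PMEL and MITF had values used here, and neither exceeded 1.57 RPKM.

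VIM was lower in the KO line at every time. The untreated WT libraries were at 376, 388 and 388 RPKM and the untreated KO libraries at 258, 254 and 255 RPKM. At 12 h WT held 310, 316 and 316 RPKM and KO 236.5, 220 and 226 RPKM. At 48 h WT held 298, 273 and 284 RPKM and KO 194, 196 and 187 RPKM. No KO library reached the lowest WT library of its own time, and even the lowest WT value of all, 273 RPKM at 48 h, was above the highest KO value of all, 258 RPKM untreated. Relative to the WT mean KO stood at 66.5%, 72.5% and 67.4% at the 3 times, and the difference in log2(RPKM + 1) was -0.59, -0.46 and -0.57, each with an SE of 0.035. In order of group means VIM ran from KO at 48 h (192 RPKM) through KO at 12 h (228) and untreated KO (255) to WT at 48 h (285), WT at 12 h (314) and untreated WT (384), and no 2 neighbours in this order overlapped.

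**Figure D1:**
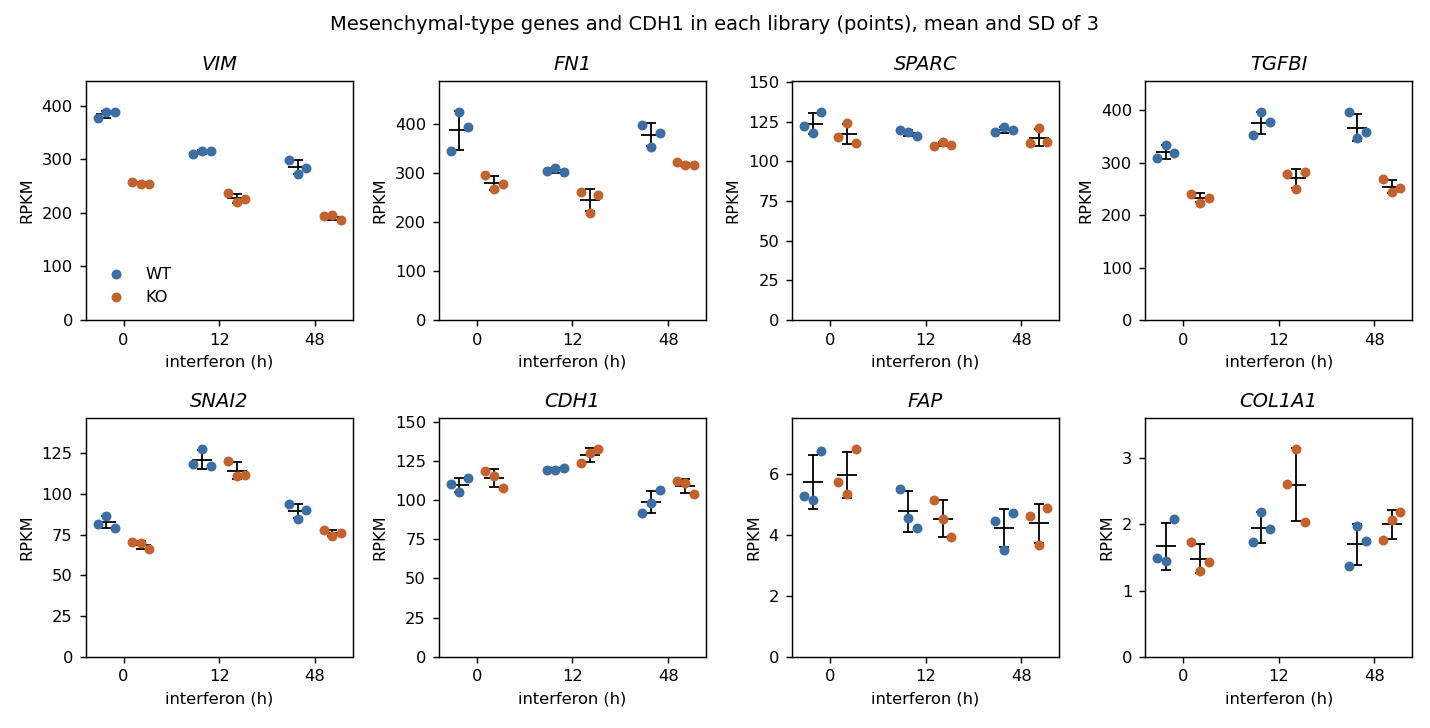
RPKM of each of the 8 genes in each library (points) by hours in interferon, with WT in blue and KO in orange, and the mean and SD of 3 libraries in black. The KO points lie below the WT points of the same time for VIM, FN1 and TGFBI at all 3 times and for SNAI2 at 0 and 48 h. FAP and COL1A1 overlap at every time, and SPARC and CDH1 at 0 and 48 h.

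The lower level was shared by FN1 and TGFBI at all 3 times and by SNAI2 at 0 and 48 h. FN1, whose protein assembles into matrix fibrils, was at 345, 424 and 394 RPKM in untreated WT and at 296, 268 and 277 RPKM in untreated KO. It was at 305, 311 and 301 RPKM against 261, 219 and 256 RPKM at 12 h, and at 399, 353 and 383 RPKM against 322, 316 and 316 RPKM at 48 h. KO was thus below WT without overlap at each time, by mean levels of 72.3%, 80.2% and 84.1% relative to WT, with log2 differences of -0.46, -0.32 and -0.25 (SE 0.072). Across times the genotypes were not apart, since KO at 48 h (318 RPKM) was above WT at 12 h (306 RPKM).

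TGFBI, a secreted ligand of integrins, differed by a like amount at each time. Untreated WT was at 309, 335 and 318 RPKM and untreated KO at 241, 224 and 234 RPKM. At 12 h the values were 354, 396 and 379 RPKM in WT and 279, 250 and 282.5 RPKM in KO. At 48 h they were 397, 347 and 359 RPKM in WT and 269, 244 and 252 RPKM in KO. As with VIM, every KO library was below every WT library, whatever the time. The log2 differences were -0.46, -0.48 and -0.53 (SE 0.061).

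SNAI2, the repressor, was at 81.6, 86.6 and 79.3 RPKM in untreated WT and at 70.2, 70.0 and 66.0 RPKM in untreated KO. At 48 h it was at 93.6, 84.7 and 90.4 RPKM in WT and at 78.0, 74.2 and 75.7 RPKM in KO, again without overlap. At 12 h the groups overlapped, with 118, 128 and 117 RPKM in WT and 120, 111 and 111 RPKM in KO. Its log2 differences were -0.26, -0.08 and -0.23 (SE 0.049).

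SPARC, FAP, COL1A1 and CDH1 did not share the difference in this way. SPARC was at 116 to 131 RPKM over the 9 WT libraries and at 110 to 125 RPKM over the 9 KO libraries, and the genotypes were apart only at 12 h, by a log2 difference of -0.09 (SE 0.045). FAP ranged from 3.52 to 6.76 RPKM in WT and from 3.67 to 6.83 RPKM in KO, and overlapped at every time, as did COL1A1, with 1.37 to 2.19 RPKM in WT and 1.29 to 3.14 RPKM in KO. CDH1 was slightly higher in KO on average, by mean levels of 104%, 108% and 110% relative to WT, with overlap at 0 and 48 h and none at 12 h, when WT held 119, 119 and 120 RPKM and KO 124, 130 and 133 RPKM. At each of the 3 times 4 of the 8 genes were lower in KO without overlap, namely VIM, FN1 and TGFBI with SNAI2 at 0 and 48 h or SPARC at 12 h. Over all genes tested such a gap was seen in 8.85%, 9.77% and 9.29%. Nothing is read from this count, because the list was made knowing the contrast.

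**Figure D2:**
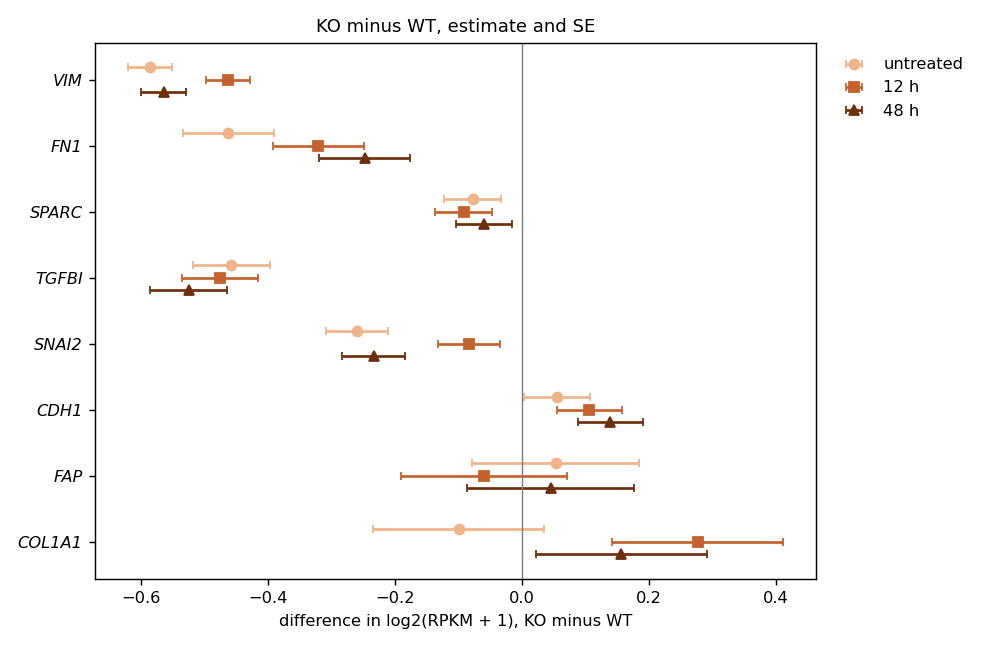
Difference between KO and WT in log2(RPKM + 1) for the 8 genes, untreated (circles) and at 12 h (squares) and 48 h (triangles), with the SE of the fitted model. VIM, FN1 and TGFBI lie left of 0 at all 3 times, from -0.25 to -0.59, and CDH1 lies just right of 0.

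The ratio of VIM to CDH1 within a library gives the same contrast on a scale that needs no normalization between libraries. In untreated cells it was 3.504 ± 0.161 in WT and 2.24 ± 0.102 in KO, at 12 h 2.62 ± 0.025 and 1.77 ± 0.123, and at 48 h 2.90 ± 0.300 and 1.77 ± 0.037. No KO library reached the ratio of the lowest WT library at any time, and the mean ratio was lower after 12 h of interferon than before in both genotypes. Because VIM chose the list, this too is a description.

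The sequences before the start sites of VIM, FN1 and TGFBI, which were lower together in KO, are shown beside that of SPARC, which was lower without overlap only at 12 h. Each is the 250 bases before the RefSeq start in GRCh38.p14, written 5′ to 3′ on the gene's strand, with capitals marking matches to the GC box GGGCGG on either strand. The submitters' processing notes name hg19, so these coordinates are not those of the authors' alignment.
VIM, chr10:17227991-17228240, + strand: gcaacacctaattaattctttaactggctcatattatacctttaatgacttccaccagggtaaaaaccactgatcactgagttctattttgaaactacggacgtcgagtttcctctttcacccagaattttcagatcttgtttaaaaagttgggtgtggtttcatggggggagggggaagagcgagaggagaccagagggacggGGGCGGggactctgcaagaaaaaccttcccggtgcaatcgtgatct
FN1, chr2:215436069-215436318, - strand: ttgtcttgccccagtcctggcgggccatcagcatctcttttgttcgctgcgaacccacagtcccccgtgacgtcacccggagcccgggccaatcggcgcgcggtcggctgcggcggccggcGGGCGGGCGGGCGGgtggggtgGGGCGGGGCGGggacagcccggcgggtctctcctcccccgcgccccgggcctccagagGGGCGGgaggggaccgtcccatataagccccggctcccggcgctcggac
TGFBI, chr5:136028738-136028987, + strand: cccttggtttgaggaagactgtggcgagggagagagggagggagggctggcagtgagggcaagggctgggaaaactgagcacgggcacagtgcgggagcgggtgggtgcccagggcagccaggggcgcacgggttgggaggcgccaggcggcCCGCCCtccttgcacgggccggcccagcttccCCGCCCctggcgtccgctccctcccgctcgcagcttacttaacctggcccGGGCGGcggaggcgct
SPARC, chr5:151686916-151687165, - strand: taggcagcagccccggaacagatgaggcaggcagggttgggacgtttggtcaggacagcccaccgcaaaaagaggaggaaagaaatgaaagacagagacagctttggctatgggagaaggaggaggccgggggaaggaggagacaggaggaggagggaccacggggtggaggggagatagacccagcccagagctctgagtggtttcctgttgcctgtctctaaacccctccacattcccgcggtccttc
The GC box was matched once or more in the VIM, FN1 and TGFBI sequences, with 1, 6 and 3 matches, some of those in FN1 sharing a base or more, and not in that of SPARC. It occurs in 42.6% of the 35116 RefSeq promoters cut to the same length. Nothing is read from where it was found, because so few sequences, grouped by the contrast that chose the list, cannot link a motif to a difference. The other motifs searched on both strands had no match in the 4 sequences: the AP-1 site TGANTCA (in 6.57% of promoters), the Snail family E-box CAGGTG (17.5%), the interferon-stimulated response element (3.02%), the gamma-activated site TTCNNNGAA (6.57%) and the TATA box TATAAA (10.7%). The VIM sequence had a GC content of 46.0%, against 76.4% for FN1, 72.8% for TGFBI, 59.2% for SPARC and a median of 58.0% over all promoters.

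In interferon these genes changed in different directions, with time in culture not told apart. These comparisons are not the one that chose the list, though they share libraries with it. VIM fell in both genotypes and was lower at 48 h than at 12 h. In WT its log2 change was -0.29 at 12 h (SE 0.035, limma, adjusted p 7.03e-06) and -0.43 at 48 h (adjusted p 1.80e-07). In KO it was -0.17 at 12 h (adjusted p 0.00092) and -0.41 at 48 h (adjusted p 3.55e-07). From 12 to 48 h VIM fell further by 0.14 on the log2 scale in WT (adjusted p 0.00532) and by 0.24 in KO (adjusted p 5.16e-05). In KO 3 of 3 libraries at each interferon time were below the 3 untreated ones, and the same held in WT. The 12 h and 48 h changes of a genotype share its untreated libraries.

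The early changes depend in part on scaling. The median 12 h change over all genes tested was -0.09 for WT and -0.10 for KO, and of all calls 33.6% and 32.7% were higher. With median-of-ratios scaling these medians were -0.01 and -0.01, and the shares 50.2% and 49.6%. Under that scaling the VIM change at 12 h came to -0.20 for WT (limma, adjusted p 0.000332), whereas the KO value of -0.07 no longer passed (adjusted p 0.143). From 12 to 48 h the VIM changes were then -0.22 in WT and -0.33 in KO. The changes at 48 h against untreated cells, -0.425 in WT and -0.40 in KO, moved little.

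SNAI2 rose early and fell back. The WT means were 82.5 RPKM untreated, 121 at 12 h and 89.6 at 48 h, and the KO means were 68.7, 114 and 76.0 RPKM. All 3 libraries at 12 h were above all untreated and all 48 h libraries of their genotype. The rise at 12 h came to 0.55 in WT (SE 0.049, limma, adjusted p 2.80e-07) and 0.72 in KO (adjusted p 8.70e-09), and the step from 12 to 48 h was -0.43 and -0.58 (adjusted p 7.39e-06 and 2.48e-07). At 48 h the difference from untreated cells, 0.12 in WT and 0.14 in KO, did not pass, though with median-of-ratios scaling the KO value was 0.16 (limma, adjusted p 0.0491).

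CDH1, like SNAI2, had its highest group mean at 12 h in each genotype, but its lowest at 48 h. In WT its libraries held 110, 105 and 114 RPKM untreated, 119, 119 and 120 RPKM at 12 h and 92.0, 98.3 and 106 RPKM at 48 h. In KO they held 119, 116 and 108 RPKM untreated, 124, 130 and 133 RPKM at 12 h and 112, 111 and 104 RPKM at 48 h. CDH1 rose at 12 h in KO by 0.18 (SE 0.052, limma, adjusted p 0.0102), and the WT change of 0.125 missed the threshold (adjusted p 0.0588). It passed with median-of-ratios scaling, at 0.21 (adjusted p 0.00263), where the KO value was 0.28. The KO call was lost without KO replicate 3 at 0 h, at 0.14 (adjusted p 0.0552). From 12 to 48 h CDH1 fell in both genotypes, by 0.28 and 0.24 (adjusted p 0.00065 and 0.00144).

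Among the matrix genes, FN1 fell at 12 h and then rose, while TGFBI rose at 12 h. The log2 change of FN1 at 12 h was -0.34 in WT (SE 0.072, limma, adjusted p 0.00129) and -0.19 in KO (adjusted p 0.0347). The KO call was lost with median-of-ratios scaling (-0.09, adjusted p 0.317), in the fit on 6 libraries (adjusted p 0.0663), without a variance trend (adjusted p 0.0522) and without KO replicate 1 at 0 h (-0.155, adjusted p 0.133), KO replicate 3 at 0 h (-0.20, adjusted p 0.0603) or KO replicate 2 at 12 h (-0.12, adjusted p 0.193). From 12 to 48 h FN1 rose by 0.30 in WT and 0.38 in KO (adjusted p 0.00372 and 0.000607). TGFBI rose at 12 h by 0.23 in WT (SE 0.061, limma, adjusted p 0.00583) and 0.21 in KO (adjusted p 0.00879). Its rise at 48 h in WT, 0.195, was close to the threshold (limma, adjusted p 0.0443) and was lost in 11 of the 25 alternative fits, while the KO value of 0.13 did not pass. From 12 to 48 h TGFBI passed in neither genotype, but with median-of-ratios scaling it fell in KO by 0.17 (adjusted p 0.0398).

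The members at low levels, and SPARC, passed in fewer comparisons. COL1A1 rose at 12 h in KO, from 1.73, 1.29 and 1.43 to 2.61, 3.14 and 2.04 RPKM, by 0.53 (SE 0.135, limma, adjusted p 0.00421), and in WT the change was 0.15. FAP fell at 12 h in KO by 0.33 (SE 0.131, adjusted p 0.0465), a call lost in 11 of the 24 alternative fits, and its other interferon changes against untreated cells did not pass. SPARC passed in no interferon comparison, and its changes were between -0.08 and 0.05. The summed fibroblast markers, COL1A1 among them, were also higher at 12 h than untreated, mostly through PRRX1, whose mean was 9.21 RPKM untreated and 18.7 RPKM at 12 h in WT, and 8.33 and 14.6 RPKM in KO. FAP, in the same sum, had lower means at 12 h, and the part of fibroblast RNA in the COL1A1 change was not tested.

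**Figure D3:**
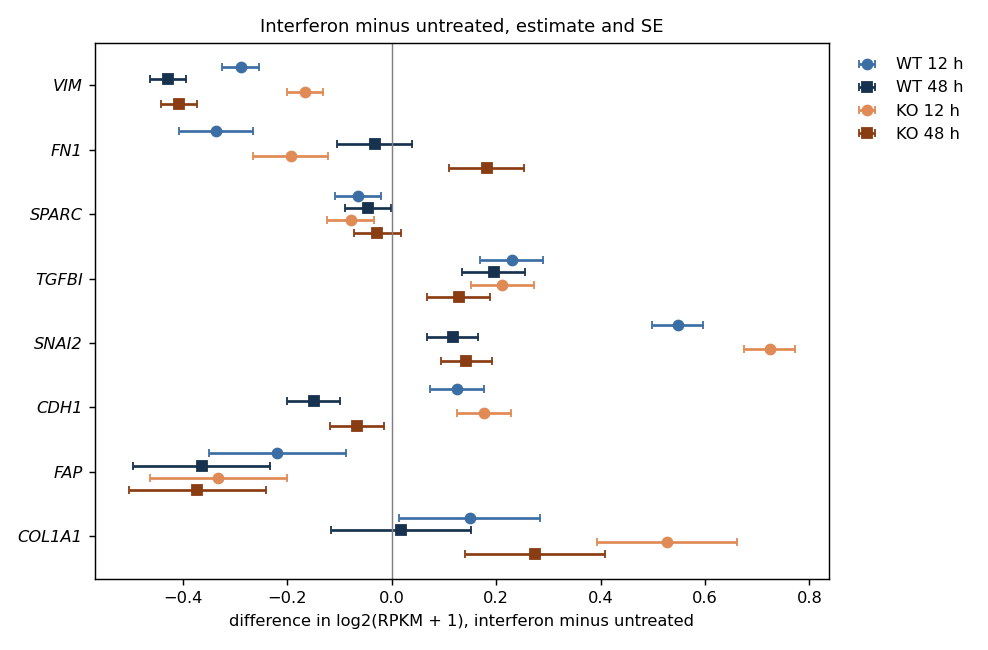
Change after 12 h (circles) and 48 h (squares) of interferon in log2(RPKM + 1) for the 8 genes in WT (blue shades) and KO (orange and brown), with the SE of the fitted model. VIM lies left of 0 in all 4 comparisons, SNAI2 moves farthest right at 12 h, and SPARC stays near 0.

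Counted over the list, 4 of the 8 genes passed at 12 h in WT, where 44.9% of all genes tested did, and 7 of 8 in KO, where 48.8% did. With median-of-ratios scaling these counts were 5 in WT and 4 in KO, so the order of the genotypes turned. At 48 h 2 passed in WT and 1 in KO (2 in KO with that scaling), beside 12.8% and 13.3% of all genes. Between 12 and 48 h 4 passed in each genotype, namely VIM, SNAI2 and CDH1 lower and FN1 higher, beside 35.9% of all genes in WT and 41.7% in KO.

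Whether the changes in interferon differed in KO was read from the interaction of genotype and interferon, the change in KO minus the change in WT. The interaction contains the untreated difference between KO and WT, part of the contrast that chose the list. For these 8 genes it is therefore no independent test. None of the 8 genes passed at 12 h or 48 h in limma, beside 0.0753% and 0.0828% of all genes. At an unadjusted p under 0.05 there were 2 at 12 h, SNAI2 with 0.18 (SE 0.069) and VIM with 0.12 (SE 0.049), both with an adjusted p of 0.79, and 0 at 48 h, where 5.75% and 6.22% of all genes had such a p. The VIM interaction at 48 h was 0.02 (SE 0.049). The largest estimate was that of COL1A1 at 12 h, 0.38 with an SE of 0.190. A miss of the threshold does not show that the responses were equal.

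To see how far the difference between the lines extends, other genes of these programmes were read in 5 lists without the 8 members. The lists too were chosen with earlier results of these data known, so their calls between KO and WT are no independent support. The mesenchymal lists held 39 genes, of which 27 had values used here and 21 were tested, and the epithelial lists held 25, all tested. In untreated cells 3 mesenchymal genes were lower in KO and 2 were higher, where 2.07% of all genes were lower and 2.82% higher. At 12 h 3 were lower and 1 higher (2.02% and 1.6% of all genes), and at 48 h 2 were lower and 2 higher (2.16% and 2.03%). Leaving out KO replicate 2 at 0 h gave 5 lower at 12 h, WT replicate 3 at 12 h or 1 at 48 h gave 2 higher at 12 h, and WT replicate 1 or KO replicate 3 at 48 h gave 1 lower at 48 h. The median difference over the 21 genes was -0.11, -0.14 and -0.08, beside medians over all genes tested of 0.02, 0.01 and 0.01. With median-of-ratios scaling the untreated counts were 5 lower and 1 higher, and when only the 6 untreated libraries were fitted they were 1 lower and 1 higher. Over all genes that scaling gave 46.2% higher calls between untreated KO and WT, against 57.7% as deposited.

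The mesenchymal genes that differed did so in both directions. MMP2, a secreted protease that cuts basement membrane collagen, was lower in KO at all 3 times. It was at 16.4, 18.1 and 17.3 RPKM in untreated WT and 7.84, 6.18 and 6.92 RPKM in untreated KO, with log2 differences of -1.20, -0.996 and -0.86 (SE 0.129, limma, adjusted p 2.10e-05, 0.000202 and 0.000653). MMP14, the membrane protease that activates MMP2, was lower at 0 h (-0.19, adjusted p 0.0222) and 12 h (-0.32, adjusted p 0.000445). TPM2, a tropomyosin of actin filaments, was lower at 0 h (-0.24, adjusted p 0.00499) and 12 h (-0.19, adjusted p 0.0291). In the other direction, LOXL2, an enzyme that crosslinks collagen, was higher at all 3 times, by 0.69, 0.90 and 0.72 (SE 0.0997, adjusted p 0.000469, 4.00e-05 and 0.000318), with untreated levels of 3.57 ± 0.238 RPKM for WT and 6.36 ± 0.318 RPKM for KO. ITGA5, the fibronectin receptor's alpha chain, was higher at 0 h (0.23, adjusted p 0.0425) and 48 h (0.30, adjusted p 0.0074). The calls of MMP14 at 0 h, TPM2 at 0 and 12 h and ITGA5 at both times were lost when only the 6 libraries compared were fitted, and that of ITGA5 at 0 h also with median-of-ratios scaling and in 11 of 18 fits that left a library out.

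The transcription factors other than SNAI2 were low. PRRX1 ranged from 4.44 to 21.4 RPKM, ZEB2 from 0.56 to 2.19 RPKM, TWIST1 from 0.26 to 2.74 RPKM, TWIST2 from 0.11 to 1.24 RPKM and ZEB1 from 0.06 to 0.86 RPKM over the 18 libraries. Among these and SNAI2, SNAI2 had the highest level in every library. Of the 3 factors tested, ZEB2, TWIST1 and PRRX1, 0 passed between KO and WT at any time in limma. At an unadjusted p under 0.05 there were 0, 1 and 0, beside 18.1%, 17% and 16.4% of all genes.

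On the epithelial side the calls were mostly higher in KO. Among 25 genes there were 3 higher and 0 lower at 0 h (2.82% and 2.07% of all genes), 5 higher and 1 lower at 12 h (1.6% and 2.02%), and 4 higher and 0 lower at 48 h (2.03% and 2.16%). At an unadjusted p under 0.05 there were 7, 10 and 11 in either direction, beside 18.1%, 17% and 16.4% of all genes. Of the 21 mesenchymal genes 9, 13 and 8 had such a p. The median difference was 0.08, 0.12 and 0.08. EPCAM, an epithelial adhesion molecule, was at 45.7, 41.0 and 47.1 RPKM in untreated WT and 73.9, 68.1 and 73.8 RPKM in untreated KO. It was higher by 0.68, 0.46 and 0.48 (SE 0.063, limma, adjusted p 4.06e-06, 0.000306 and 0.000167). CLDN1, a tight junction protein, was higher by 0.53, 0.72 and 0.50 (SE 0.085, adjusted p 0.00113, 8.04e-05 and 0.00195). DSG3, a desmosomal cadherin, was higher by 0.295, 0.21 and 0.28 (SE 0.053, adjusted p 0.00293, 0.0337 and 0.00464). DSP, the plaque protein of desmosomes, was higher at 48 h (0.23, adjusted p 0.0278), and the epithelial transcription factors GRHL3 (0.57, adjusted p 0.0119) and GRHL2 (0.24, adjusted p 0.0305) at 12 h. The lower gene at 12 h was CLDN7, another claudin (-0.55, adjusted p 0.0244), which is named after its values were seen. In the fits on 6 libraries alone the higher calls numbered 1 at 0 h and 2 at 48 h. DSG3 lost its calls at 0 and 48 h there (adjusted p 0.0551 and 0.0679), and CLDN1 at 0 h (adjusted p 0.052). DSP lost its call at 48 h (adjusted p 0.0707) and GRHL2 that at 12 h (adjusted p 0.0763). Without WT or KO replicate 3 at 12 h those at 12 h numbered 2, without WT replicate 1 or 2 or KO replicate 2 at 12 h 3, and without WT replicate 3 at 48 h those at 48 h numbered 7. Of the 8 keratinocyte markers, SFN and COL17A1 were lower in KO at 0 and 48 h, with differences of -0.28 and -0.22 for SFN (adjusted p 0.00622 and 0.0274) and of -0.195 and -0.17 for COL17A1 (adjusted p 0.00689 and 0.0214). With only the 6 libraries compared, COL17A1 lost both calls (adjusted p 0.117 and 0.0954) and SFN that at 48 h (adjusted p 0.147), and without a variance trend both lost those at 48 h.

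**Figure D4:**
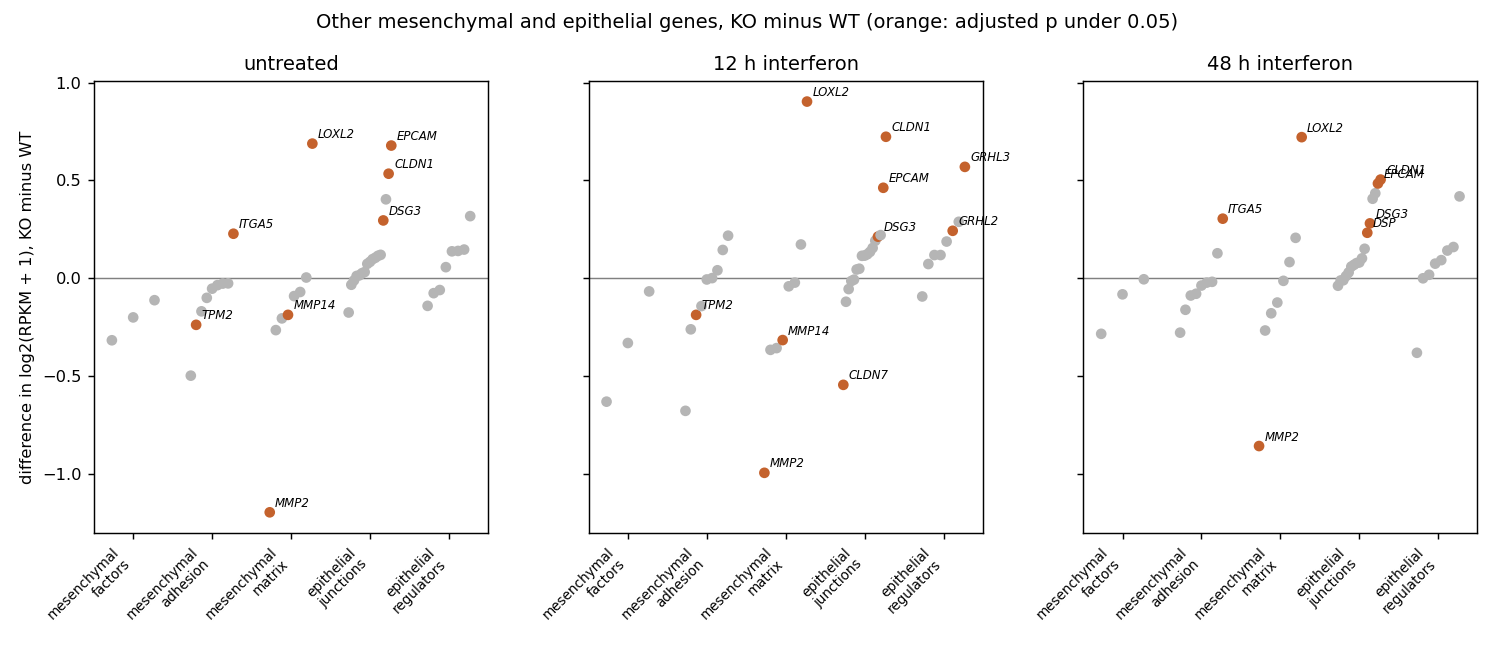
Difference between KO and WT in log2(RPKM + 1) for all but 1 of the tested genes of the 5 lists, members aside, in 3 panels by time, with genes past an adjusted p of 0.05 in orange and named. MMP2 is the lowest point in each panel and LOXL2 the highest, and EPCAM, CLDN1 and DSG3 are above 0 in all 3.

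The listed genes also moved in both directions in interferon. At 12 h WT had 6 mesenchymal genes that rose and 5 that fell, and KO had 7 of each, of 21. Over all genes tested 15.1% rose and 29.8% fell in WT, and 16.0% and 32.8% in KO, so that the share of the list called in WT was near that of all genes. TAGLN, an actin-binding protein of contractile cells, rose by 1.49 in WT and 1.80 in KO (SE 0.099, limma, adjusted p 7.51e-09 and 5.65e-10), and THBS1, the matrix protein thrombospondin, by 0.96 and 1.23 (adjusted p 8.90e-10 and 2.94e-11). TNC, the wound matrix protein tenascin, rose by 0.84 and 0.79 (adjusted p 6.49e-08 and 1.04e-07), and ITGA5 by 0.36 and 0.35 (adjusted p 0.000206 and 0.000224). PRRX1, a mesenchymal homeobox factor, rose by 0.99 and 0.86 (adjusted p 0.00964 and 0.0195), the KO call being lost with only the compared libraries (adjusted p 0.065). ACTA2, smooth muscle actin, fell by 0.56 and 0.77 (adjusted p 1.38e-05 and 3.79e-07). At 48 h THBS1 was the 1 mesenchymal gene of 21 higher than untreated in each genotype, where 6.52% of all genes tested rose in WT and 5.9% in KO. In each genotype 9 were lower, TNC among them (-0.77 in WT and -0.56 in KO), where 6.3% of all genes tested fell in WT and 7.42% in KO. The KO count of lower genes was 5 without KO replicate 1 at 0 h or KO replicate 3 at 48 h.

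Of the 25 epithelial genes WT had 7 that rose and 6 that fell at 12 h, and KO had 7 and 5, shares near the 44.9% and 48.8% of all genes called. The repressor OVOL1 rose by 0.83 and 0.87 (SE 0.088, limma, adjusted p 2.12e-06 and 9.14e-07), and the desmosomal proteins PKP3 by 0.43 and 0.48 (adjusted p 0.000555 and 0.000162) and JUP by 0.32 and 0.30 (adjusted p 0.000617 and 0.00111). CLDN1 fell by 0.56 and 0.37 (adjusted p 7.04e-05 and 0.00194), and ESRP1, an epithelial splicing regulator, by 0.25 and 0.23 (adjusted p 7.59e-05 and 0.000117). Among the keratinocyte markers, KRT6A (0.75 and 0.795) and KRT17 (0.56 and 0.68), keratins of activated keratinocytes, and COL17A1 (0.55 and 0.61), a hemidesmosome collagen, rose at 12 h in WT and KO (limma, largest adjusted p 6.35e-06). With median-of-ratios scaling the counts of lower genes at 12 h were smaller, 3 mesenchymal in WT, 4 mesenchymal in KO and 3 epithelial in WT. In the interactions 0 of these 21 and 25 genes passed in limma at either time. An unadjusted p under 0.05 was seen in 4 and 3 at 12 h and in 4 and 1 at 48 h. Over all genes tested the shares with such a p were 5.75% at 12 h and 6.22% at 48 h.

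The genes whose levels over the 18 libraries were most like those of VIM were found by Pearson correlation of log2(RPKM + 1) among the named genes tested. They were MCAM, a cell adhesion molecule of the immunoglobulin family (r = 0.97), the aldehyde dehydrogenase ALDH2 (0.94), the secreted glutathione peroxidase GPX3 (0.93), the protease inhibitor SERPINA1 (0.93) and MT1L (0.92), a copy within the metallothionein family whose reads are uncertain. MCAM had group means of 21.5, 16.7 and 14.6 RPKM in WT at 0, 12 and 48 h and of 14.1, 10.6 and 9.98 RPKM in KO. The most opposite were SNRK (-0.95), DSG3 (-0.95), PPTC7 (-0.94), WASL (-0.93) and UGT8 (-0.93). The 18 points fall into 6 groups and share the genotype and time differences. Once the group means were taken away, MCAM still had an r of 0.58 with VIM over the libraries, while ALDH2 had -0.21 and DSG3 -0.45.

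**Figure D5:**
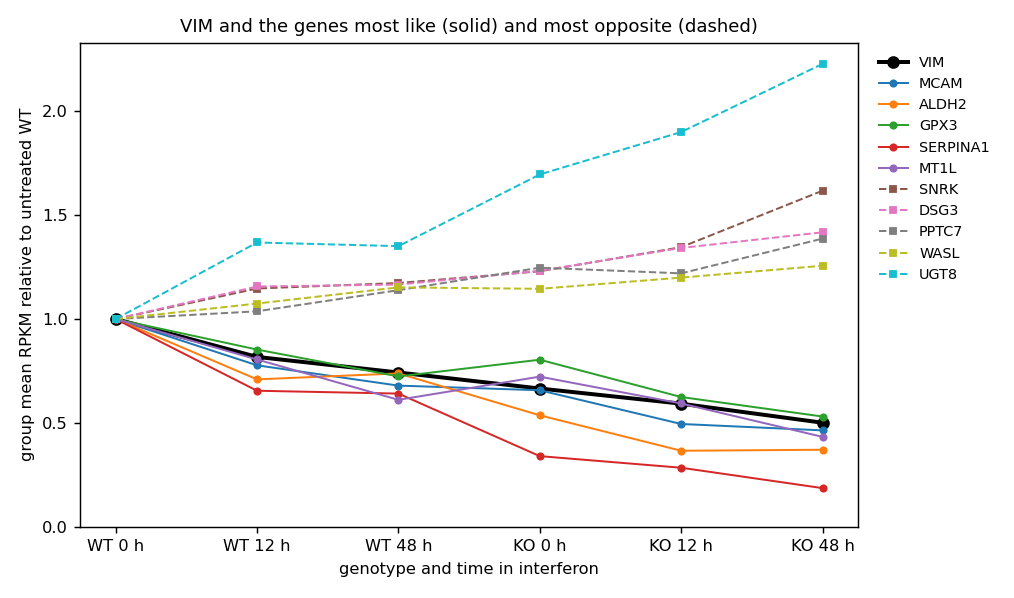
Group mean RPKM relative to untreated WT for VIM (black), the 5 genes with the highest correlation with it (solid) and the 5 with the lowest (dashed), in the 6 groups. VIM and MCAM are lower in KO than in WT and fall with time in interferon, and DSG3 runs the other way.

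The members varied together only in part. Over the 18 libraries VIM had an r of 0.57 with FN1, 0.64 with TGFBI, 0.61 with SPARC, 0.17 with SNAI2 and -0.17 with CDH1. About the group means the r with VIM was 0.71 for FN1, 0.67 for TGFBI, 0.60 for SNAI2, -0.05 for SPARC and -0.19 for CDH1. Libraries of a group with more VIM thus tended to hold more FN1, TGFBI and SNAI2. These values describe 18 points that share their library and depth.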

How the data were processed

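RNA was taken from 18 samples of NIKS keratinocytes and made into stranded mRNA libraries, per the labels' protocols. The authors deposited 1 table of RPKM values with 16472 Ensembl gene IDs, rounded to 2 decimals. The submitters' processing notes name hg19, cutadapt, STAR 2.6.1, RSEM 1.3.0 and limma 3.50.3, without the role of each. The annotation, the gene filter, the use of strand in counting and the handling of mouse reads are not given in the sources used here. VIM overlaps the antisense genes VIM-AS1 and AL133415.1, which were at most 1.6 and 0.86 RPKM, and CDH1 overlaps FTLP14 (at most 1.76 RPKM).

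A table of Ensembl IDs gave symbols to 15666 genes. RPKM values are not counts, so log2(RPKM + 1) was fitted, for genes with at least 1 RPKM in at least 3 libraries, by a cell-means model over all 18 libraries in limma 3.58.1 under R 4.3.3, with a trend of the variance on mean level. Adjustment was by Benjamini-Hochberg across the 13280 genes, in each of 11 comparisons separately, with a threshold of 0.05. Every difference is on that scale, which understates changes of low genes. The fit was also run on simulated data with known shifts in untreated KO alone and independent noise. That run does not cover the choice of scaling or deviations shared within a library. Relative depth came from 633 genes with low values, 69.1% of whose values lay within 3% of whole reads, so no counting interval or floor is given.

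The members, the lists and the tests were chosen with earlier results of these data known. The genes named are the 8 members, SP100, up to 4 genes of each list called between KO and WT at any time by size at 0 h, up to 3 called alike at 12 h in both genotypes by size in WT, and the 5 genes most like and most opposite to VIM. Alternatives were a pseudocount of 0.1, no filter, median-of-ratios scaling, a filter at a mean of 5 RPKM, only the compared libraries fitted, no variance trend, a replicate block, and each library left out in turn. Counts over the mesenchymal lists include 1 gene whose values are not reported here. Promoter sequences are from RefSeq (GRCh38.p14), which held 4 of the 8 members by symbol.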

Additional observations from a re-analysis of the deposited data

How the results depend on the processing

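The lower VIM of KO and its fall with interferon kept their direction under all 25 alternatives. With median-of-ratios scaling the VIM change at 12 h in KO was -0.067 and lost its call, and the untreated difference between KO and WT was -0.609, against -0.586 as deposited. Leaving out single libraries gave -0.60 to -0.58 for that difference, -0.49 to -0.44 at 12 h and -0.60 to -0.53 at 48 h, and -0.01 to 0.05 for the VIM interaction at 48 h, which has no direction. Fitting only the libraries compared, with fewer samples, gave 945 genes against 1770 for KO at 48 h against 0 h. It gave 306 against 650, 213 against 481 and 250 against 556 for KO against WT at 0, 12 and 48 h, and 6 against 10 and 3 against 11 for the interactions at 12 and 48 h. With single libraries left out these counts ranged from 1159 to 1776 for KO at 48 h, from 390 to 658, 311 to 490 and 375 to 554 for KO against WT, and from 6 to 11 and 7 to 11 for the interactions. The lowest counts came without KO replicate 1 at 0 h, WT replicate 2 at 0 h, WT replicate 1 at 12 h and WT replicate 2 at 48 h. From 12 to 48 h, 68.5% of calls in WT and 66.4% in KO were higher, against 47.9% and 48.6% with median-of-ratios scaling.

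Same-numbered replicates had correlated deviations in 2 of 45 pairs (over 0.1, range -0.0972 to 0.157). The values thus gave little sign of pairing by number, but they cannot show whether same-numbered replicates were handled together. With the replicate number as a block, the TGFBI change at 48 h in WT, the TPM2, DSG3 and GRHL2 differences at 12 h and the DSP and SFN differences at 48 h lost their calls, and no other call of a named gene was lost. The epithelial genes higher in KO at 12 h then numbered 3 against 5, and those lower at 48 h 1 against 0. Other counts that moved by over 1.5 times were, with only the libraries compared, 4 against 7 mesenchymal genes lower at 12 h in KO, 1 against 2 higher in KO at 48 h, 1 against 2 epithelial genes higher and 2 against 4 lower at 48 h in KO, and 0 against 1 lower in KO at 12 h, and, with median-of-ratios scaling, 13 against 7 epithelial genes lower from 12 to 48 h in KO. Without variance trends 1 mesenchymal gene was higher in untreated KO, against 2. Between KO and WT the calls of TPM2 and DSG3 at 12 h, ITGA5 at 0 h and DSP at 48 h were then lost. The TGFBI call at 48 h in WT was lost without WT replicate 1 or 3 at 0 h, 3 at 12 h, 1 or 3 at 48 h, or KO replicate 3 at 0 or 48 h, where the change was 0.14 to 0.21. The FAP call at 12 h in KO was lost without WT replicate 1 at 0 h, 2 at 12 h or 1 at 48 h, or KO replicate 1 or 3 at 0 h, 2 or 3 at 12 h, or 1 at 48 h, where the change was -0.355 to -0.25. Of 18 fits that each left out 1 library, the calls between KO and WT were lost in 4 for MMP14 at 0 h, 4 for TPM2, 6 for DSG3, 5 for GRHL2 and 2 for GRHL3 at 12 h, and 4 for DSP, 4 for SFN and 3 for COL17A1 at 48 h, and those of PRRX1 at 12 h of interferon in 1 for WT and 2 for KO. Depth is known only in relative terms.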
